A study of Mus musculus with 6 samples.

Results

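The Ly6 and Lypd genes encode small surface proteins of the Ly6 and urokinase receptor (uPAR) family. They were examined on 6 single-channel Affymetrix arrays of CD4+CD8+ (double-positive) thymocytes, an immature stage of T-cell development at which cells express both coreceptors. The members were Lypd6b, Lypd6, Ly6a, Ly6c1, Ly6c2, Ly6d, Ly6e and Ly6k. A gene was measured by probe sets annotated to it alone, and its brightest probe set over the 6 arrays was taken. This gave 7 of the 8 members, among 22180 genes in all, through 8 probe sets, of which 2 belonged to Ly6k. Ly6a, which encodes Sca-1, was not analysed here. The members were chosen by their family and by their measured log2 difference between the genotypes, so the levels and differences below are a description and no test is given for them. No probe set that named several genes included a member.

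The thymocytes came from C57BL/6 mice aged 5 to 6 weeks, either wild type (3 arrays) or Ets1-/- (3 arrays), a genotype that lacks the ETS-family transcription factor Ets1. Fixed thymus cells were taken with magnetic beads against CD8 and then against CD4, and cohorts of litter mates served as biological replicates, per the labels. The sources used here do not give how many animals each array held or which part of Ets1 is deleted. The p-values below therefore measure the spread between these 6 arrays. In RNA from many cells, fewer cells of a type and less RNA per cell cannot be told apart.

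Ly6 and uPAR proteins share a compact fold of finger-like loops held together by disulfide bonds, and most are tied to the outer leaflet of the membrane by a glycosylphosphatidylinositol (GPI) lipid anchor. Many mouse Ly6 genes lie side by side in 1 cluster and have long served as surface markers of blood cells: Ly6C marks monocytes, plasma cells and subsets of T cells, Ly6d marks early B-lineage cells, and Ly6e is the thymic shared antigen of immature thymocytes. Several Ly6 genes respond to interferon. Lypd6 acts on Wnt signalling, and Lypd6b modulates nicotinic acetylcholine receptors.

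The Ly6C proteins are encoded by 2 neighbouring genes, Ly6c1 and Ly6c2, whose values differed in their pattern across the arrays, so the bases before their start sites are shown beside each other, with those of Lypd6, the neighbour of Lypd6b. The RefSeq table of sequences (GRCm38.p6) held windows for 3 of the 8 members, Lypd6, Ly6c1 and Ly6c2. Each sequence is the part of the 250 bases before the first listed start that lies outside the annotated gene, 5′ to 3′ on the strand of the gene. Capitals mark the letters GGAAGT, which include the core that ETS factors bind.
Ly6c2: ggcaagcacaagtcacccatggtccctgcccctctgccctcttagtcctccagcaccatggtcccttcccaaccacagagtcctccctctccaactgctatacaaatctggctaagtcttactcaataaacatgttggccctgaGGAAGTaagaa
Ly6c1: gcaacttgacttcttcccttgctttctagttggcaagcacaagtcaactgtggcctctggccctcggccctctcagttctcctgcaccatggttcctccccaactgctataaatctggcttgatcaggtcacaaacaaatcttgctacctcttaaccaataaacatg
Lypd6: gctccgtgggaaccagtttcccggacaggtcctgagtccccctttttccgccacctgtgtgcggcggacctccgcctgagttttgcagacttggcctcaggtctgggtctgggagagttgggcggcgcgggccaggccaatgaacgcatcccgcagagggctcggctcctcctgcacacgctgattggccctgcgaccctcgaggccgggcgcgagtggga
The stretch of Ly6c2 is chr15:75112067-75112221 on the minus strand, that of Ly6c1 is chr15:75048921-75049087 on the minus strand, and that of Lypd6 is chr2:50066179-50066399 on the plus strand.

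Over the whole 250 bases, the windows of Ly6c1 and Ly6c2 aligned locally over 227 columns with 164 identical bases (72.2%). GGAAGT was searched on both strands. It occurred 1 time in the window of Ly6c2, beginning 106 bases before the start, and 0 times in those of Ly6c1 and Lypd6. For the other listed start of each gene, the window of Ly6c1, which lies inside the annotated gene, held 1 match and that of Ly6c2 held 2. The windows of Ly6c2 overlap, and its match 140 bases before the other start is the same stretch as the match 106 bases before the first. Of 32851 windows of this length in the table, 19.7% held GGAAGT. The interferon response element occurred in 2.98% of windows, and the STAT letters TTCNNNGAA in 7.02%, on either strand. Neither was found in the 5 windows of these members. A match is a stretch of letters and not a measured binding site. The window of Lypd6 was rich in G and C, at 70.4%, which is more than in 91.2% of all windows; that of Ly6c1 held 48.4%.

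The values are log2 signals as deposited. The arrays were not on 1 common distribution: the median over all probe sets was 4.19 to 4.33 on all arrays but Ets1-/- replicate 1, where it was 3.66. Over all genes the median log2 difference, always Ets1-/- minus wild type here, was -0.22, and -0.01 once the arrays were centred on their medians. Of all genes, 413 (1.86%) were called at a limma adjusted p under 0.05, 287 higher (1.29%) and 126 lower (0.568%) in Ets1-/- (484 and 423 with 16 added to each linear signal), and the 3 values of each group did not overlap in 21.9%. The cells were selected with beads against CD8 and CD4, so high Cd4 and Cd8 signals do not check for other cells among them. Cd4 had group means of 10.94 in wild type and 11.08 in Ets1-/-, Cd8a 11.00 and 10.91, and Cd8b1 11.69 and 11.66. Rag2, a further double-positive marker, was at 9.77 and 9.48, and none of the 4 passed the threshold. Of the 15 measured genes on the list of double-positive markers, 1 rose and 1 fell: Ptcra, the pre-T-cell receptor chain of earlier thymocytes, rose by 1.50 (limma adjusted p = 0.0282) and Tdrd5 fell by 2.55 (adjusted p = 0.00402). Ptcra kept its call only without Ets1-/- replicate 1 (adjusted p from 0.0660 to 0.116 without another array). Of 12 measured markers of earlier thymocyte progenitors, 4 were called higher and 0 lower, Ptcra among them. Cd44, another of these, is also on the list of mature T-cell markers used below. On the progenitor list Kit was at 0.10 (limma adjusted p = 0.89). Notch1 was at -0.94 with groups that did not overlap (adjusted p = 0.204). Il2ra rose by 3.17 (limma adjusted p = 0.00864) and Mef2c by 3.63. With 16 added to each linear signal these rises were 2.77 and 2.27. The source of these signals was not tested. The probe set of Ets1 itself read 9.20 ± 0.11 and 9.09 ± 0.27 on the wild-type and Ets1-/- arrays (SD, n = 3 each), so it does not check the genotype labels. Without Ets1-/- replicate 2, 145 genes were called higher and 45 lower, and without Ets1-/- replicate 3, 176 higher. Without wild-type replicates 1, 2 and 3 the genes called lower numbered 43, 38 and 44.

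Among the members, Lypd6b had by far the higher signal in wild type and Ly6c2 by far the higher signal in Ets1-/-, Ly6d and Lypd6 lay lower in Ets1-/- by smaller amounts, and Ly6e, Ly6k and Ly6c1 had overlapping groups. Of the 7 measured members, 1 (Lypd6b) was among the genes called at a limma adjusted p under 0.05, where 1.86% of all genes were. The groups did not overlap for 4 of 7, where 21.9% of all genes had such groups: 3 lower (16.1% of all genes) and 1 higher (5.76%). These counts repeat the contrast by which the members were chosen and support nothing.

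**Figure D1:**
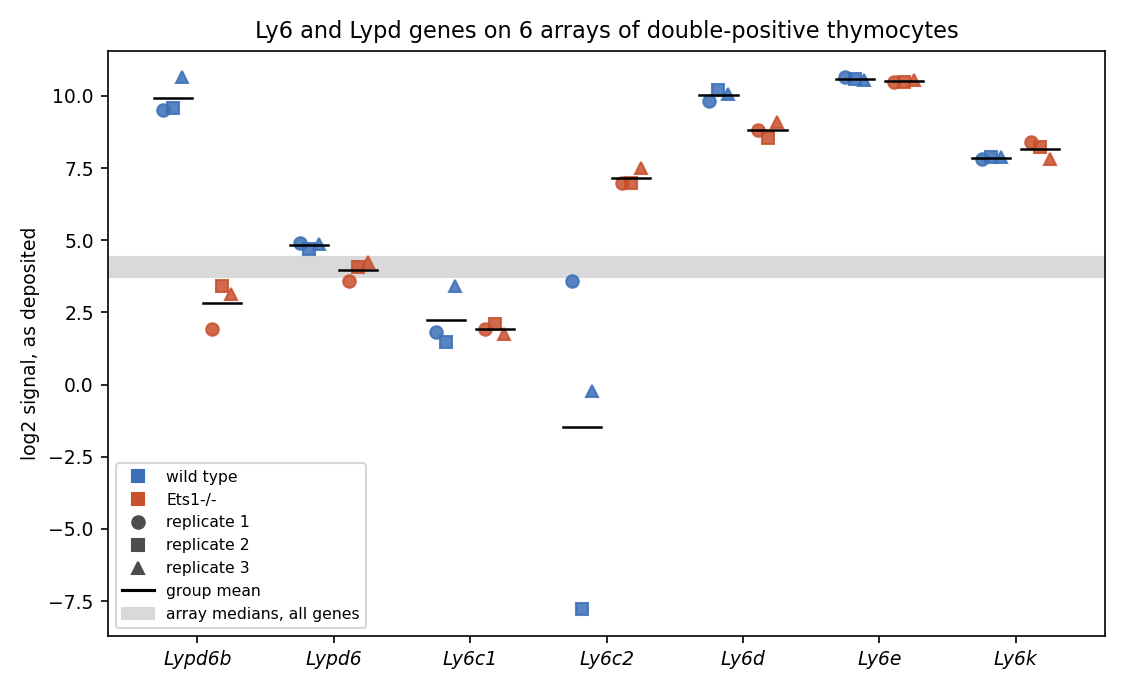
Log2 signal as deposited (vertical axis) of the 7 measured members on the 6 arrays, wild type in blue and Ets1-/- in orange, with a symbol for each replicate, a black line for each group mean, and a grey band for the range of the 6 array medians over all genes. Lypd6b lies between 9.52 and 10.65 in wild type and between 1.94 and 3.40 in Ets1-/-, and Ly6c2 between -7.78 and 3.59 against 6.97 to 7.49; levels of different genes are not comparable.

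Lypd6b gave 9.52, 9.57 and 10.65 on wild-type replicates 1 to 3 and 1.94, 3.40 and 3.15 on Ets1-/- replicates 1 to 3. All 3 wild-type arrays were high and all 3 Ets1-/- arrays were low, with a wide gap between the groups. The means were 9.91 ± 0.64 and 2.83 ± 0.78 (SD, n = 3 each), a log2 difference of -7.08 ± 0.46 (limma SE; 95% interval -8.16 to -6.01). Within each array, ranked among all genes, Lypd6b stood at percentiles 98.8 to 99.7 in wild type and 7.34 to 23.1 in Ets1-/-. The Ets1-/- values lay below the median of all genes on those arrays, so the size of the difference depends on the low end of the scale, and with 16 added to each linear signal it was -5.38 ± 0.29 (SE). Among the 22180 genes its difference ranked 5 from the lowest.

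The genes whose profiles over the 6 arrays were most like that of Lypd6b, by the root mean square difference between profiles centred on their own means, were Cnga1 (0.49), Syt13 (1.29) and Slc6a19 (1.58). Cnga1, a cyclic-nucleotide-gated channel subunit, had means of 9.77 and 2.96 in wild type and Ets1-/-. The synaptotagmin Syt13 had means of 8.11 and 3.34, and the amino acid transporter Slc6a19 8.36 and 3.24. All 3 profiles were chosen for their likeness, which a large difference between the groups dominates.

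Lypd6 lies next to Lypd6b in the gene order. It gave 4.92, 4.71 and 4.88 in wild type and 3.60, 4.08 and 4.24 in Ets1-/-. The groups did not overlap, and all 6 values were near the median of all genes. The means were 4.84 ± 0.11 and 3.98 ± 0.34 (SD, n = 3 each), a log2 difference of -0.86 ± 0.25 (SE; 95% interval -1.44 to -0.28), or -0.64 relative to the median of all genes. With 16 added to the linear signals it was -0.48. The closest profiles to Lypd6 were those of Cmss1, Npas2 and Tmem74bos, at root mean square differences of 0.06, 0.07 and 0.07.

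Ly6c2, one of the genes of the Ly6C antigen, gave 3.59, -7.78 and -0.23 in wild type and 6.97, 6.98 and 7.49 in Ets1-/-. The Ets1-/- values were close together and all above the wild-type values, which scattered widely below the array medians. The means were -1.47 ± 5.78 and 7.15 ± 0.30 (SD, n = 3 each), a log2 difference of 8.62 ± 2.41 (SE; 95% interval 3.04 to 14.20). This size rests on single low values: it was 5.47 without wild-type replicate 2, 11.15 without wild-type replicate 1 and 9.24 without wild-type replicate 3. With 16 added to the linear signals the values ran from 4.00 to 4.81 in wild type and from 7.15 to 7.62 in Ets1-/-, a difference of 3.01 ± 0.24 (SE). Within the arrays Ly6c2 stood at percentiles 0.0812 to 30.1 of all genes in wild type and 83.6 to 88.1 in Ets1-/-. Its nearest profiles were Gm20594, Scd1 and Rbm24, at root mean square differences of 1.97, 2.50 and 2.55. Their wild-type means were -4.70, -4.57 and 2.24, against 1.08, 5.97 and 6.34 in Ets1-/-. These profiles were chosen for their likeness, which depends on the scattered low wild-type values of Ly6c2.

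Ly6c1, the other Ly6C gene, gave 1.83, 1.46 and 3.42 in wild type and 1.91, 2.10 and 1.74 in Ets1-/-. The groups overlapped and all values lay below the medians of all genes. The log2 difference was -0.32 ± 0.48 (SE; 95% interval -1.43 to 0.80), and it was 0.27 without wild-type replicate 3, the highest value. Ly6c1 and Ly6c2 are close relatives whose transcripts can share probes, so how far each probe set reads its own gene alone is uncertain. In these data the Ly6c2 probe set was high in Ets1-/- and the Ly6c1 probe set was low on all 6 arrays.

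Markers on 3 lists of cell types known for Ly6C rose with Ly6c2, and so did markers on other lists. Of 12 B-cell and 12 earlier progenitor markers, 6 and 4 were called higher and 0 lower. Of all genes, 1.29% were called higher and 0.568% lower, and the median log2 difference was -0.22. Of 18 measured macrophage and monocyte markers, 13 were called higher and 0 lower, with a median log2 difference of 2.78. Their summed linear signal was 810.2 to 1028 in wild type and 4363 to 5859 in Ets1-/-. Csf1r, the receptor that macrophages need for growth, had means of 4.55 ± 0.15 and 7.86 ± 0.44 and rose by 3.31 (SD, n = 3; adjusted p = 0.00140), and the integrin Itgam rose by 3.01 (1.89 with the pseudocount). Ccr2, the chemokine receptor of monocytes that carry Ly6C, was at 4.10 ± 0.62 and 5.82 ± 0.27 (adjusted p = 0.0586). Of 8 plasma-cell markers 3 were called higher and 0 lower (1 higher without Ets1-/- replicate 2), and their summed signal was 257 to 275.5 and 806 to 2314. Among them Jchain, the joining chain of secreted antibodies, rose by 5.30 and Mzb1 by 3.95 (adjusted p = 0.0567 for Mzb1 without Ets1-/- replicate 2, limma). Of 16 markers of mature T cells, 11 were called higher and 0 lower (7 higher without Ets1-/- replicate 2 or 3), with summed signals of 1313 to 1516 and 3963 to 5495. The lowest wild-type means on the 3 lists were 2.91 (Adgre1), 2.55 (Irf4) and 3.77 (Gimap3) on the log2 scale. These means lay below the median of all genes on every wild-type array (4.29 to 4.41). The rises of these 3 markers were 2.77, 2.13 and 3.07 as deposited. They were 1.49, 0.94 and 2.08 with the pseudocount of 16, so their sizes depend on how weak signals are treated. Of 12 neutrophil, 9 natural killer and 12 endothelial markers, 0 were called higher or lower as deposited. Their median log2 differences were -0.38, 0.25 and -0.53. All 12 endothelial markers lay below 0, 4 of them at an unadjusted limma p under 0.05. With the pseudocount of 16, the endothelial marker Pecam1 was called lower (limma adjusted p = 0.0277). The natural killer markers Il2rb and Klrd1 were then called higher (0.00886 and 0.034). Of 14 dendritic-cell markers, 6 were called higher and 0 lower, and 5 lay below 0. The called ones were Itgax, Irf8, Bst2, H2-Aa, H2-Ab1 and H2-Eb1. Other markers on that list did not rise: Xcr1 was at -1.15, Zbtb46 at -0.38, Batf3 at -0.25, Cd209a at -0.19 and Flt3 at 0.03. The part of any of these cells in the Ly6c2 signal was not tested.

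Ly6d gave 9.84, 10.20 and 10.07 in wild type and 8.82, 8.55 and 9.10 in Ets1-/-. Every Ets1-/- array lay below every wild-type array. Within the arrays Ly6d stood at percentiles 99.2 to 99.5 of all genes in wild type and 95.7 to 97.7 in Ets1-/-. The means were 10.04 ± 0.19 and 8.82 ± 0.27 (SD, n = 3 each), a log2 difference of -1.21 ± 0.24 (SE; 95% interval -1.78 to -0.65), that is 2.32-fold lower. The difference was -1.0 with arrays centred on their medians, -1.24 after quantile normalization and -1.18 with the pseudocount of 16. Ly6d is also known from B-lineage cells. Of 12 measured B-cell markers, 6 were called higher and 0 lower, where 1.29% and 0.568% of all genes were. Their summed signal was 105.7 to 142.2 in wild type and 442.4 to 894.1 in Ets1-/-. Cd79a, a chain of the B-cell receptor, rose by 4.20 (2.51 with the pseudocount of 16), and the lowest wild-type mean on the list was that of Ms4a1, at 0.04 on the log2 scale. The part of B cells in the Ly6d signal was not tested. The nearest profiles to Ly6d were Tbc1d22b, Olfr1449 and Tube1, at root mean square differences of 0.10, 0.11 and 0.12.

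Ly6e was the steadiest member. It gave 10.64, 10.58 and 10.55 in wild type and 10.48, 10.47 and 10.55 in Ets1-/-, with overlapping groups. The log2 difference was -0.09 ± 0.20 (SE; 95% interval -0.56 to 0.38), and the sign turned to 0.12 when arrays were centred on their medians. SDs were 0.05 in both groups.

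Ly6k, known mainly from the germ line of the testis, gave 7.82, 7.88 and 7.87 in wild type and 8.41, 8.22 and 7.82 in Ets1-/-. Replicate 3 of Ets1-/- lay within the wild-type range and the other 2 lay above it, so the groups overlapped. The log2 difference was 0.30 ± 0.24 (SE; 95% interval -0.26 to 0.85). The dimmer probe set of Ly6k gave means of 3.42 ± 0.22 and 3.72 ± 0.08 (SD, n = 3 each), a difference of 0.31, in the same direction.

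**Figure D2:**
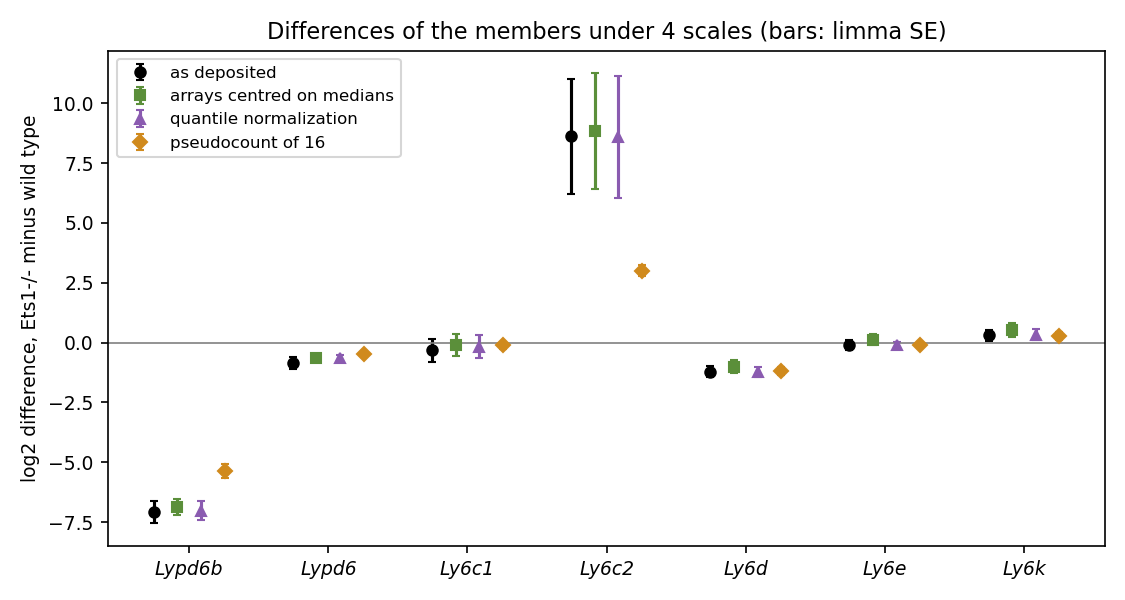
Log2 difference, Ets1-/- minus wild type (vertical axis), of the 7 measured members on 4 scales: as deposited, arrays centred on their medians, quantile normalized, and with a pseudocount of 16; bars are limma SEs. Lypd6b moves from -7.08 to -5.38 and Ly6c2 from 8.62 to 3.01 with the pseudocount, and Ly6e changes sign with centring (-0.09 to 0.12).

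With the pseudocount, 3 of the 7 members (Lypd6b, Ly6c2 and Ly6d) were among the called genes, where 4.09% of all genes were (484 higher, 2.18%, and 423 lower, 1.91%). This count too repeats the contrast by which the members were chosen, and nothing is read from it. The other scales left the order of the members by difference as it was at the ends, with Lypd6b the lowest and Ly6c2 the highest on all 4.

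The genes next to the members showed no change past the threshold. Of 36 neighbours, taken as the 5 genes before and the 5 after each member in the RefSeq gene order, 17 were measured and 0 were called higher or lower (limma; at an unadjusted p under 0.05, 0 higher and 1 lower), where 1.86% of all genes were called. Their median log2 difference was -0.24 beside -0.22 for all genes. Beside Lypd6b and Lypd6 on chromosome 2, the kinesin gene Kif5c was at -0.01 ± 0.27 and the cobalamin-trafficking gene Mmadhc at 0.23 ± 0.24 (SE). In the Ly6 cluster on chromosome 15, Ly6c2 stood between Ly6c1 (-0.32 ± 0.48) and Ly6a2 (-0.16 ± 0.39), and Ly6d between Lynx1 (-0.29 ± 0.31) and Ly6g6g (-0.14 ± 0.24). Ly6i and Cyp11b1 had the smallest p among the neighbours, at -0.72 ± 0.31 (adjusted p = 0.377) and -0.46 ± 0.22 (adjusted p = 0.428).

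**Figure D3:**
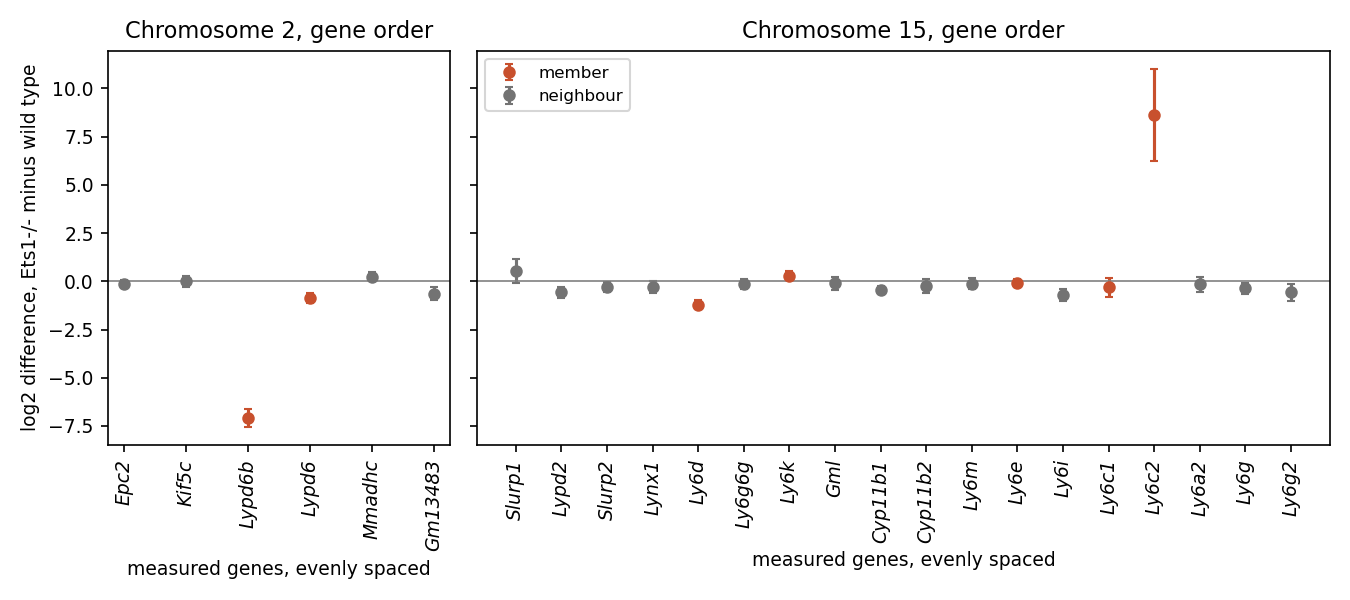
Log2 difference, Ets1-/- minus wild type (vertical axis), of measured genes in their order on chromosome 2 (left) and chromosome 15 (right), evenly spaced; members in orange, neighbours in grey, bars limma SEs. Lypd6b at -7.08 and Ly6c2 at 8.62 stand beside genes within 1 of 0.

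The wider Ly6 and uPAR family, some of whose proteins are secreted, gave 37 measured genes of 42 listed, without the members. Several of them, such as Slurp1, Lynx1, Ly6i and Ly6g, are also among the neighbours counted above. By limma 0 were called in either direction, where 1.86% of all genes were called (1 higher and 4 lower at an unadjusted p under 0.05). Their median log2 difference was -0.29, beside -0.22 for all genes, and the range was -0.89 to 0.90. Most had low signals: 13 of 37 lay above the median of all probe sets in wild type. Plaur, the urokinase receptor that gives the family its name, had the smallest p, with means of 3.07 ± 0.13 and 3.96 ± 0.20 (SD, n = 3; adjusted p = 0.115), and it was called higher with centred arrays and with quantile normalization. Lypd9 followed at -0.66 (adjusted p = 0.357). The complement inhibitors Cd59a and Cd59b were at -0.14 and 0.14, the prostate stem cell antigen gene Psca at -0.29, the nicotinic receptor modulator Lynx1 at -0.29, and the neutrophil marker Ly6g at -0.37, with adjusted p from 0.623 to 0.930. The 12 neutrophil markers had 0 called by limma (at an unadjusted p under 0.05, 0 higher and 1 lower), with summed signals of 139.1 to 174.9 in wild type and 97.2 to 147 in Ets1-/-.

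Genes for making the GPI anchor were also without calls. Of 27 measured, limma called 0 in either direction, where 1.86% of all genes were called (at an unadjusted p under 0.05, 1 higher and 1 lower), with a median log2 difference of -0.11. Pigx, a subunit of the first mannosyltransferase of the pathway, had means of 8.04 ± 0.13 and 7.23 ± 0.20 (SD, n = 3; adjusted p = 0.156), and was called lower with the pseudocount of 16 and with an intensity trend. Pign, which adds an ethanolamine phosphate to the anchor, was at 5.30 and 5.93 (adjusted p = 0.354).

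Other surface proteins that carry a GPI anchor changed in part. Of 40 measured, 5 rose and 1 fell, where 1.29% and 0.568% of all genes did, and their median was -0.19. The list held some proteins that span the membrane (Fcgr4, Ulbp1, H60a and H60b), and without them 4 rose and 1 fell of 37. Nt5e, the ectonucleotidase CD73, rose by 5.04 ± 0.22 (limma SE; adjusted p = 0.000224). Its values were 2.12, 2.10 and 2.01 in wild type and 7.07, 6.95 and 7.32 in Ets1-/-, with no overlap. Fcgr4, an Fc receptor of myeloid cells, rose by 4.04 (adjusted p = 0.000701). Bst2, the tetherin that holds virus particles, rose from 7.19 ± 0.30 to 8.73 ± 0.09 (adjusted p = 0.0203), Bst1, a cyclase of bone marrow stroma and myeloid cells, by 3.03 and the neurturin receptor Gfra2 by 2.25. Sema7a, a GPI-anchored semaphorin, fell from 7.17 ± 0.22 to 5.57 ± 0.12 (adjusted p = 0.0134). The lowest difference on the list was that of Gfra1, at -2.46, which was not called (limma adjusted p = 0.0634). With the pseudocount of 16 Gfra1 was called lower (limma adjusted p = 0.0189).

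The calls for Nt5e and Fcgr4 held without any single array. The number that rose was 3 without wild-type replicate 1 or 2 and 2 without Ets1-/- replicate 2 or 3. With 16 added to the linear signals the rises were smaller, at 2.93 for Nt5e, 2.65 for Fcgr4, 1.07 for Bst1 and 0.90 for Gfra2, whose wild-type means of 2.08, 3.06, 1.56 and 2.31 lay below the array medians. For Sema7a the adjusted p was 0.0679 and 0.0683 with wild-type replicate 1 or 2 left out and 0.0665 with Ets1-/- replicate 2 left out. Bst2 kept its call only without Ets1-/- replicate 1 (adjusted p from 0.0620 to 0.0933 without another array), Bst1 lost it without Ets1-/- replicate 1, 2 or 3 (0.0853, 0.107 and 0.0547), and Gfra2 kept it only without wild-type replicate 3 (0.0800 to 0.109 otherwise). Classic GPI-anchored antigens of thymocytes did not pass the threshold: Thy1 was at 10.91 and 10.61 in wild type and Ets1-/-, Cd24a at 10.52 and 10.30, Cd52 at 9.75 and 9.29 and Cd48 at 6.68 and 7.26, with adjusted p of 0.581, 0.668, 0.416 and 0.494. Macrophage and monocyte markers moved with the rises of Fcgr4, Bst1 and Bst2, as given above for Ly6c2, and their part was not tested.

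Interferon-stimulated genes were counted because Ly6C, Ly6e and Sca-1 are known to respond to interferon. Of 46 measured, 5 rose and 0 fell, where 1.29% and 0.568% of all genes did, and the median log2 difference was 0.55 beside -0.22 for all genes. At an unadjusted p under 0.05 (limma), 16 were higher and 4 lower, among the latter Gbp4 at -0.98 and Ifit2 at -0.97. Some of the higher ones rest in part on a low value on wild-type replicate 3. On wild-type replicates 1 to 3, Irf7 gave 5.15, 4.78 and 3.54, Gbp3 3.81, 4.29 and 2.04, and Xaf1 6.60, 6.69 and 5.14. Oasl2 and Cxcl10 were not lowest on that array. Oasl2, an antiviral protein of the oligoadenylate synthetase family, rose by 3.64 ± 0.36 (limma SE; adjusted p = 0.00277). The chemokine Cxcl10 rose by 2.84, the DNA-sensor family gene Ifi204 by 4.65, the GTPase Iigp1 by 4.54, and Bst2, which is on both lists, by 1.54. With 16 added to the linear signals the rises were 1.98 for Oasl2, 1.07 for Cxcl10, 2.12 for Ifi204 and 1.98 for Iigp1. Iigp1 lost its call without Ets1-/- replicate 1 or 2 (adjusted p = 0.0965 and 0.101) and with an intensity trend (0.0585), and 3 genes of the list rose without Ets1-/- replicate 2. Irf7, which drives interferon production, was at 4.49 ± 0.84 and 6.45 ± 0.31 (adjusted p = 0.0732). The median wild-type signal of the list was 5.64, and 4 of the 5 called genes, all but Bst2, had wild-type means no higher than that of Oasl2, 2.50. The summed signal of macrophage and monocyte markers moved in the same direction, and its part was not tested.

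**Figure D4:**
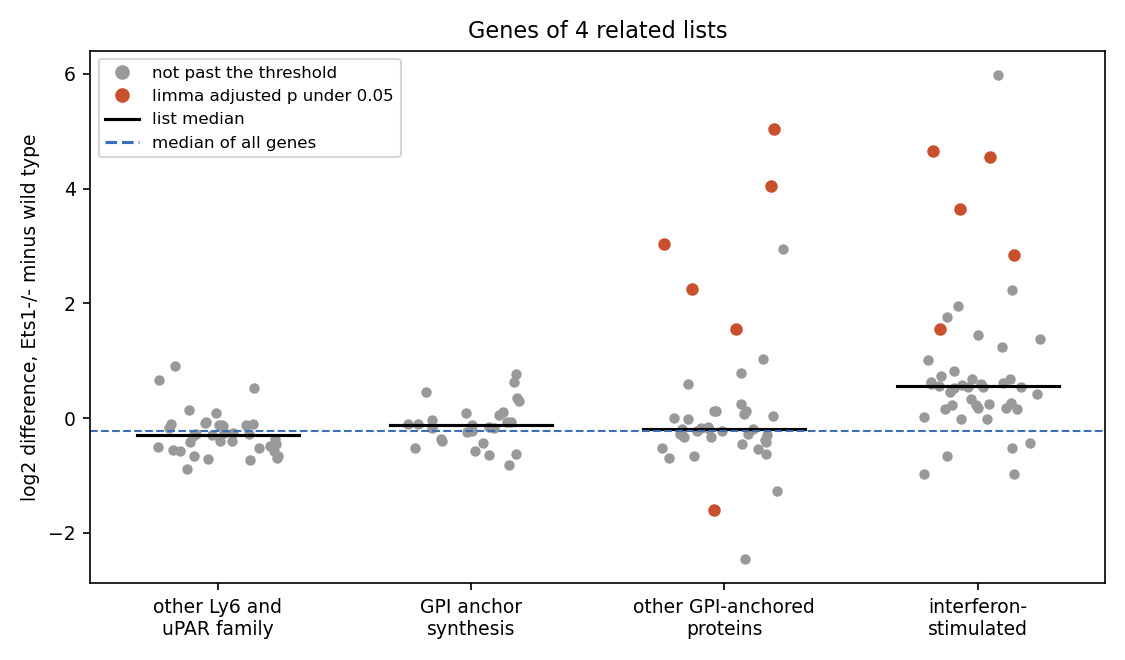
Log2 difference, Ets1-/- minus wild type (vertical axis), of each measured gene of 4 lists: other Ly6 and uPAR family genes (37), GPI anchor synthesis (27), other GPI-anchored proteins (40) and interferon-stimulated genes (46). Orange points passed limma adjusted p under 0.05 (0, 0, 6 and 5 genes), black lines are list medians, and the dashed line is the median of all genes (-0.22).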

How the data were processed

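RNA of 6 samples was measured on Affymetrix arrays. The authors deposited log2 values for 41345 probe sets; the scale was read from the values (-15.86 to 16.36). They used affy, per the submitters' processing notes; its background correction, its normalization and a genome build are not stated there. Probe sets were named through the platform annotation: 23521 named 1 gene, 1814 several and 16010 none. The 22180 genes were each represented by the brightest probe set, with no filter. Differences were fitted by lmFit and eBayes of limma 3.58.1, under R 4.3.3, as a two-sided test without covariates, with Benjamini-Hochberg adjustment over all genes and a threshold of 0.05, and the fit was tested on simulated data. The number of arrays limits the precision. Tables used numpy 2.4.6 and pandas 2.3.3 in Python 3.11.15, and plots matplotlib 3.10.9.

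The members and lists were chosen with earlier results of these data known. Named were the 8 members, a set of fixed genes, up to 5 called genes with the smallest p of each list (the 2 smallest where none passed), and the 3 nearest profiles; marker lists are given by fewer names. 1 of the fixed genes is not reported here. Alternatives were the mean of all probe sets, genes above the median signal, median centring, quantile normalization, a pseudocount of 16 on the linear scale, a replicate block, an intensity trend with a robust prior, and leaving out each array. Added after seeing the data was the GPI list without transmembrane proteins. Sequences are from RefSeq, GRCm38.p6, whose gene table gave names and order.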

Additional observations from a re-analysis of the deposited data

How the results depend on the processing

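Over 12 or 13 alternatives for each of the 7 measured members, the sign was the same except for Ly6e with centred arrays (0.12) and Ly6c1 without wild-type replicate 3 (0.27). The members' differences moved by more than the replicate SD with the pseudocount of 16 for Lypd6b (-5.38), Lypd6 (-0.48) and Ly6c2 (3.01). Ly6c1 and Ly6c2 gave no value among genes above the median signal. Leaving out 1 array gave ranges of -7.37 to -6.64 for Lypd6b, -0.99 to -0.67 for Lypd6, -0.70 to 0.27 for Ly6c1, 5.47 to 11.15 for Ly6c2, -1.35 to -1.08 for Ly6d, -0.11 to -0.06 for Ly6e and 0.17 to 0.46 for Ly6k.

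Genes called higher numbered 545 with centred arrays, 513 with quantile normalization, 484 with the pseudocount, 618 with the intensity trend and 145 to 276 without 1 array, against 287; those called lower numbered 264 among genes above the median signal, 200, 285, 423 and 554 under the same 4 settings, 62 with the replicate block and 38 to 103 without 1 array, against 126. Genes called higher outnumbered those called lower by less with the pseudocount (484 to 423), the intensity trend (618 to 554) and genes above the median signal (347 to 264) than as deposited (287 to 126). Other Ly6 and uPAR genes had 1 called higher with centred arrays and 1 with quantile normalization, and GPI synthesis genes 1 called lower with the pseudocount and 1 with the trend. Of the other GPI-anchored proteins 3 rose among genes above the median signal and 2 to 4 without 1 array, and 2 fell with the mean of probe sets, centring, quantile normalization or the pseudocount, 5 with the trend, 0 with the block and 0 to 2 without 1 array. Of the interferon-stimulated genes 3 rose among genes above the median signal, 8 with the pseudocount, 10 with the trend and 3 to 5 without 1 array, and 1 fell with the pseudocount and 2 with the trend. The cause of these shifts was not tested. For the replicate block, same-numbered arrays shared only a number: their deviations from the group means correlated at -0.07, -0.01 and -0.05 over genes, and the labels do not tie numbers to litters.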
